A study of Mus musculus with 8 samples.

Results

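Cytokine receptors that lack an enzyme of their own signal through Janus kinases (JAKs), which sit on the receptor tails and phosphorylate them, and through STAT proteins, which dock there, are phosphorylated, pair up and enter the nucleus to bind DNA. In macrophages this route carries interferon signals through Jak1, Tyk2 and Stat2, interleukin-10 and interleukin-6 signals through Stat3, GM-CSF signals through Jak2 and Stat5, and interleukin-4 signals through Stat6. SOCS proteins, among them Socs3, are made in response and shut the receptors off again. The transcripts of 9 genes of this route were followed here: the kinases Jak1, Jak2 and Tyk2, the factors Stat2, Stat3, Stat5a, Stat5b and Stat6, and the inhibitor Socs3. They were taken by name from the 23761 genes of the deposited table, by a rule that uses no measured value, although earlier results of these data were known when they were chosen. All 9 were listed there.

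The RNA came from bone marrow-derived macrophages (BMDMs) of 3-month-old mice, grown from marrow of the femur and tibia in L929-conditioned medium and replated. There were 4 libraries labelled LysM (genotype LysM Cre/Cre) and 4 labelled K2KO (LysM Cre/Cre KLF2 flox/flox), so both groups carried Cre on both alleles of the lysozyme M gene, which is active in monocytes, macrophages and granulocytes. All 8 were marked as vehicle libraries. They are called LysM0 to LysM3 and K2KO0 to K2KO3 after the columns of the table, whose numbering could not be tied to single mice. Values are FPKM, the fragments of a transcript scaled to its length and to the size of the library, so that levels can be set side by side between genes. The table gives no read counts. Low FPKM values put the depths at 0.883 to 1.34 times that of LysM0, with no difference between the genotypes in an exact permutation test (two-sided p = 0.8). Actb ran from 2625 to 2949 FPKM in LysM and, lower in each library, from 1962 to 2449 FPKM in K2KO. Gapdh never exceeded 0.4999 FPKM, so a value near 0 in this table does not show that a gene was silent.

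Klf2, the deleted gene (chr8:72319033-72321656, + strand, mm10), had an FPKM of 44.1, 52.9, 64.7 and 72.8 in LysM0 to LysM3. In K2KO0 to K2KO3 it was 45.5, 41.6, 59.2 and 59.3. The groups overlapped, and the difference did not pass the test (exact two-sided p = 0.429, where 4 against 4 libraries allow no p below 0.0286). Reads from outside the floxed segment cannot be told apart from reads within it in a value per gene, so Klf2 does not check the labels, and each direction below is that of the libraries labelled K2KO against those labelled LysM.

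The cells carried the macrophage markers Cd68, Csf1r and Adgre1 at 1834 ± 129, 524 ± 15.5 and 433 ± 62.3 FPKM (SD, n = 4) in LysM. The sum over 9 macrophage markers was 4181 ± 93.9 FPKM in LysM and 3893 ± 78.8 FPKM in K2KO, without overlap. Among single genes tested, 23.1% did not overlap. Much of the gap lay in Cd14, at 1028 ± 56.7 and 829 ± 118 FPKM, which was not called (limma adjusted p = 0.0630). The sum over all listed genes was also lower on the K2KO side, at 448235 to 501965 FPKM against 497253 to 551608 FPKM in LysM. Of the 9 markers, 2 passed the test described below, Mertk higher and Lyz2 lower (22.2%, where 18.4% of all genes tested passed it). Lyz2 is the lysozyme M gene itself, which carried Cre on both alleles in both groups, so its level is a poor marker here. Mertk was called in 7 of 11 other settings and 2 of 8 fits with a library left out, and Lyz2 in 8 of 11 and 4 of 8. Neither was called once GC content and length were corrected for, as with Jak2 below (limma adjusted p = 0.0923 and 0.0560). The sum over 9 neutrophil and granulocyte precursor markers, led by S100a9, was 250 ± 54.8 and 251 ± 60.7 FPKM. Of the 7 that could be tested, 1, Camp, was lower (14.3%, where 8.61% of all genes tested were lower). Camp was called in 10 of 11 other settings and 5 of 8 fits with a library left out. Markers of dendritic cells, led by Ccr7, summed to 0.690 to 5.50 FPKM, and those of B cells, led by Cd79b, to 1.53 to 5.44 FPKM. Fibroblast markers, led by Dcn, summed to 0.258 to 3.42 FPKM, erythroid markers, led by Hba-a1, to 0.122 to 1.57 FPKM, and mast cell markers, led by Kit, to 0.193 to 1.07 FPKM. T cell markers, led by Lck, and NK cell markers, led by Klrb1c, summed to at most 0.989 and 0.343 FPKM, and no list had a marker at 0 in all 8 libraries. In LysM and K2KO the mean sums were 2.04 and 3.59 FPKM for dendritic cells, 0.637 and 1.76 FPKM for fibroblasts and 0.376 and 0.763 FPKM for mast cells. The means of the B, T, NK and erythroid sums were also higher in K2KO, and the groups overlapped in each of these sums. Kit itself, at 0.123 and 0.333 FPKM, did not overlap. The part of these lists in the results below was not tested. In bulk RNA, fewer cells of a type and less of a transcript per cell cannot be told apart.

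A pair of libraries, LysM0 and K2KO1, gave the lowest values of their genotype in a list of genes induced by interferon, which are described with Stat2 below. For called genes of the JAK-STAT route, calls that were lost when both were left out are given with that value. The markers above are given without this fit.

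Genes with a mean of at least 1 FPKM were tested on the log2(FPKM + 0.1) scale with limma, and a gene was called different where the Benjamini-Hochberg adjusted p fell below 0.05 and the log2 fold change exceeded 0.26 in either direction, the thresholds that the study used. Of 10920 genes tested, 18.4% were called, 9.84% higher and 8.61% lower in K2KO. All 9 genes passed the filter on low values, and 1 of them was called: Jak2, higher in K2KO. That is 11.1% of the 9, below the 18.4% of all genes. For 2 of the 9, Jak1 and Jak2, no LysM library reached into the K2KO range, against 23.1% of all genes tested. The median log2 fold change over the 9 genes was -0.05, beside 0.01 over all genes tested, with 3 genes on the higher and 6 on the lower side.

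By level, Stat6 was the most abundant of the 9 transcripts and Socs3 the least. From high to low, the order of mean FPKM over the 8 libraries was Stat6, Jak1, Stat2, Stat3, Tyk2, Stat5b, Stat5a, Jak2 and Socs3. Most neighbours in this order were fully separated, the lowest library of the upper gene lying above the highest of the lower gene. The ranges of Jak1 and Stat2 overlapped, with Jak1 higher in 6 of 8 libraries, and Stat2 and Stat3 could not be ranked, each being the higher in 4 of 8. Jak2 and Socs3 had overlapping ranges too, but Jak2 was higher in 8 of 8 libraries.

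**Figure D1:**
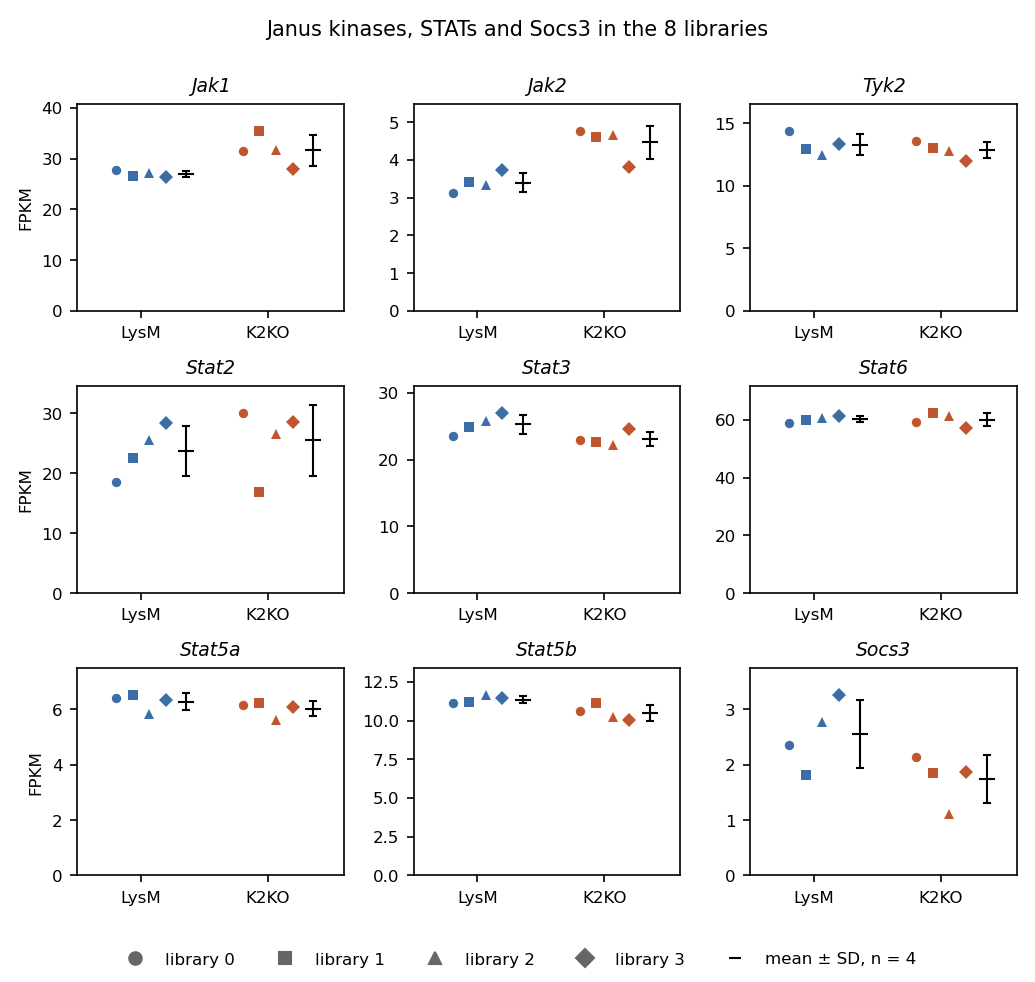
FPKM (y axes, from 0) of the 9 genes in the 8 libraries, LysM in blue and K2KO in orange, with the mean ± SD of 4 libraries beside the points. Jak1 and Jak2 do not overlap between the genotypes, Stat6 lies between 57.2 and 62.4 in all libraries, and Stat2 is lowest in LysM0 and K2KO1.

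Among the kinases, Jak2 and Jak1 stood higher in each K2KO library than in any LysM library, and Tyk2 did not. Jak2, the kinase bound to the receptors for GM-CSF, interleukin-3 and erythropoietin (chr19:29251828-29313080, + strand), was the kinase with the lowest level. Jak2 FPKM was 3.12, 3.40, 3.33 and 3.72 in LysM0 to LysM3 and 4.77, 4.60, 4.66 and 3.81 in K2KO0 to K2KO3. The groups did not overlap, although K2KO3 lay close to LysM3, and the means were 3.39 ± 0.251 and 4.46 ± 0.441 FPKM (SD, n = 4). The log2 fold change was 0.38 ± 0.09 (SE), with an adjusted p of 0.0241 from limma. The call held in 5 of 11 other settings and, with 1 library left out, only in 2 of 8 fits, those without LysM0 (adjusted p = 0.0400) and without K2KO3 (adjusted p = 0.00677). Without each of the other 6 libraries in turn the adjusted p lay between 0.0584 and 0.0707, and without both LysM0 and K2KO1 the log2 fold change was 0.33 with an adjusted p of 0.0893.

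Fold changes in this table moved with the GC content of the transcripts. Their median fell from 0.20 in the eighth of genes lowest in GC (31.2% to 42.7%) to -0.17 in the eighth that is highest (57.4% to 80.9%), and since it runs along the genotypes, a technical and a biological source of this trend cannot be told apart. The Jak2 transcripts hold 44.3% GC, in an eighth whose median log2 fold change was 0.13. After each library was corrected for GC content and transcript length, the Jak2 log2 fold change was 0.20 with an adjusted p of 0.141.

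Jak1, the kinase shared by interferon receptors, the gp130 family and the receptors with the common gamma chain (chr4:101152367-101265282, - strand), was the most abundant kinase. Jak1 FPKM was 27.8, 26.6, 27.2 and 26.4 in the LysM libraries and 31.4, 35.5, 31.7 and 27.8 in the K2KO libraries. The LysM libraries lay within a narrow range (27.0 ± 0.633, SD, n = 4), and the lowest K2KO library, K2KO3, equalled the highest LysM library to 3 digits while the other K2KO libraries were well above it (31.6 ± 3.12). The log2 fold change was 0.22 ± 0.07 (SE), under the fold threshold, with an adjusted p of 0.0593. It passed both thresholds in 1 of 11 other settings, scaling to the upper quartile, and in 1 of 8 fits with a library left out, without K2KO3 (0.28, adjusted p = 0.0128). Corrected for GC content and length, it was 0.10 with an adjusted p of 0.268.

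Tyk2, the kinase of the type I interferon, interleukin-10 and interleukin-12 receptors (chr9:21104068-21131243, - strand), differed little. Tyk2 FPKM was 14.4, 12.9, 12.4 and 13.4 in LysM and 13.5, 13.0, 12.7 and 12.0 in K2KO, so the groups overlapped widely. A log2 fold change of -0.05 ± 0.06 (SE) gave an adjusted p of 0.603. An antisense gene, 1700084C06Rik, overlaps Tyk2 over 24326 bases. It was itself listed at no more than 0.208 FPKM.

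**Figure D2:**
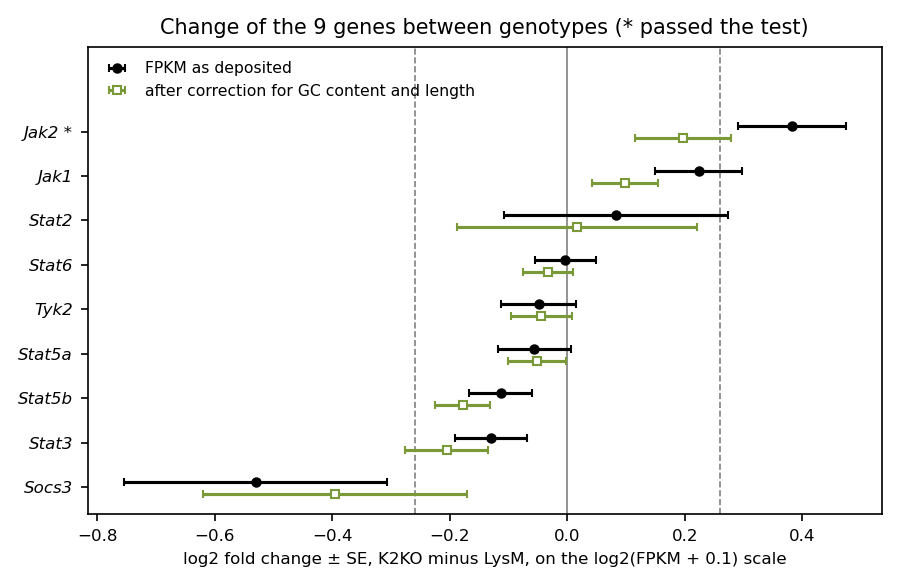
Log2 fold change (x axis, K2KO minus LysM, log2(FPKM + 0.1) scale, ± SE from limma) of each of the 9 genes on the deposited FPKM (black) and after correction for GC content and transcript length (green), with dashed lines at -0.26 and 0.26 and a star at the gene that passed the test. Jak2 moves from 0.38 to 0.20 with the correction, and Socs3 has the lowest value on both scales with a wide error.

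The 5 STATs gave no call by limma, where 18.4% of all genes tested were called. Stat2, which acts with Irf9 in the factor that answers type I interferon (chr10:128270559-128292849, + strand), varied more between libraries of a genotype than between the genotypes. Stat2 FPKM was 18.6, 22.5, 25.5 and 28.3 in LysM0 to LysM3 and 30.0, 16.8, 26.5 and 28.5 in K2KO0 to K2KO3. The lowest value of each genotype came from LysM0 and K2KO1, and the coefficient of variation was 17.5% in LysM and 23.3% in K2KO, beside medians of 8.22% and 9.38% over all genes tested. The log2 fold change was 0.08 ± 0.19 (SE), with an adjusted p of 0.776. Without LysM0 and K2KO1 it was 0.16 with an adjusted p of 0.279, and with 1 library left out at a time it ran from -0.03 to 0.27.

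The Stat2 promoter is shown because it was the only one among the 9 genes to hold the core of an interferon-stimulated response element, searched as GAAA, any 2 bases and GAAA again, on both strands, from 250 bases before to 50 bases after the RefSeq start (GRCm38.p6). The stretch is chr10:128270248-128270347, + strand, 5′ to 3′, and the capitals mark the match, which reads on the opposite strand and begins 222 bases before the start.
Stat2: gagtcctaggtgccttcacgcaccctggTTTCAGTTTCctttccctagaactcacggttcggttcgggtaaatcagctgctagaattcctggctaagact
The same letters occurred in 3.44% of 32851 RefSeq promoters of that length. Counted by gene, they were found for 6 of 12 matched targets of the factor that holds Stat2 and Irf9, among them Ifit1, Isg15 and Rsad2. A match of letters is a description and not a binding site.

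Those targets were lowest in the same libraries as Stat2. The list held 16 genes, 16 of which were tested, among them Irf7, the factor that amplifies interferon production, Isg15, a ubiquitin-like protein, Ifit3, which acts against viral RNA, and Oasl2. By limma 0 of the 16 were called, against 18.4% of all genes, and 0 had an unadjusted p under 0.05 (37.8% of all genes) or a call by ordinary least squares (6.83% of all genes). The median log2 fold change of the list was -0.11. Summed over the list, FPKM was 651, 1009, 1168 and 1316 in LysM0 to LysM3 and 1084, 540, 1037 and 1043 in K2KO0 to K2KO3. In 16 of 16 genes LysM0 was the lowest LysM library and K2KO1 the lowest K2KO library, which was the case for 13.0% of all genes tested. Isg15 ranged from 74.2 to 188 FPKM in LysM and from 49.3 to 129 FPKM in K2KO, with a log2 fold change of -0.42 ± 0.36 (SE) and an adjusted p of 0.421. With both libraries left out, 2 of the 16 passed the limma thresholds, Mx2 (-0.41, adjusted p = 0.0485) and Xaf1 (-0.42, adjusted p = 0.0374), both lower in K2KO. In that fit 11.8% of all genes were called. The libraries left out were chosen for their low values in these same genes. These p-values are therefore a description and no test of the list. Ifit3 and Oas1a share 97.8% and 97.6% of aligned bases with Ifit3b and Oas1g, and their values are uncertain to that extent.

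Irf9, the DNA-binding member of that factor, was lowest in the same libraries, at 28.4 FPKM in LysM0 and 26.3 FPKM in K2KO1. Its log2 fold change was -0.05 ± 0.11 (SE), with an adjusted p of 0.781.

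**Figure D3:**
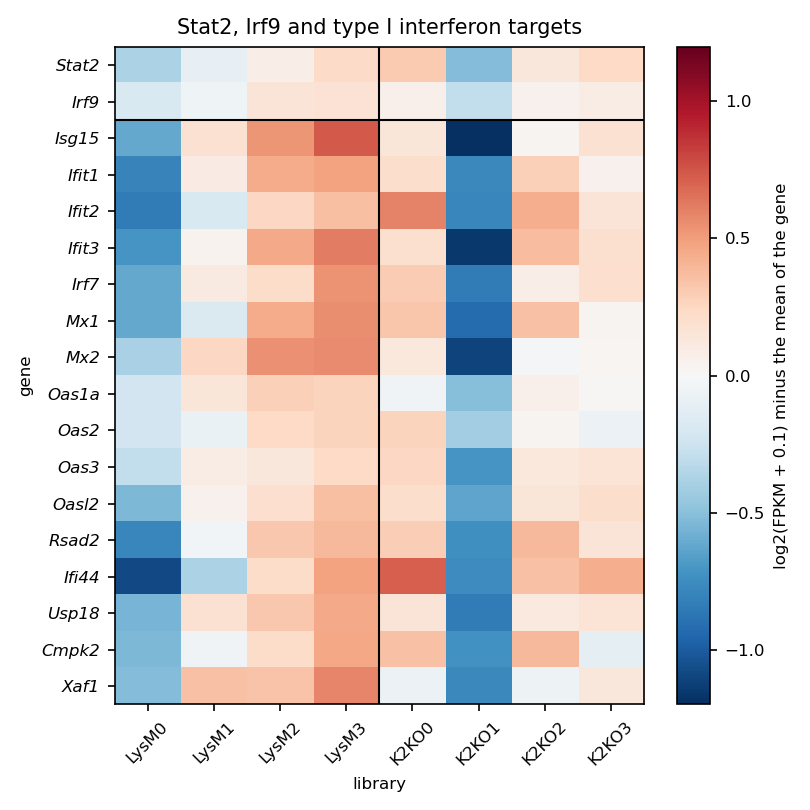
Log2(FPKM + 0.1) minus the mean of the gene (colour scale) for Stat2 and Irf9 (top block) and 16 targets of the factor that holds them (bottom block) in the 8 libraries, with a line between LysM and K2KO. LysM0 and K2KO1 are the lowest library of their genotype in 16 of 16 genes of the bottom block.

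Stat3, which carries the interleukin-6 and interleukin-10 signals (chr11:100885098-100939540, - strand), was 23.6, 24.8, 25.8 and 27.0 FPKM in LysM and 22.9, 22.7, 22.2 and 24.6 FPKM in K2KO. Only K2KO3 lay within the LysM range, and the means were 25.3 ± 1.45 and 23.1 ± 1.05 FPKM (SD, n = 4). The log2 fold change was -0.13 ± 0.06 (SE), with an adjusted p of 0.152, and it was not called in any of 11 other settings or 8 fits with a library left out. Its 3′ end overlaps that of Stat5a by 72 bases, and the strand setting of the quantification was not stated.

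Stat5a and Stat5b, a pair of neighbouring genes that answer GM-CSF and interleukin-3, lie 8.627 kb apart on chromosome 11 (Stat5a, chr11:100859351-100885169, + strand, and Stat5b, chr11:100780731-100850724, - strand). Stat5a FPKM was 6.40, 6.50, 5.81 and 6.32 in LysM and 6.15, 6.21, 5.61 and 6.09 in K2KO. Its log2 fold change was -0.06 ± 0.06 (SE) with an adjusted p of 0.532, and the groups overlapped. Stat5b was higher than Stat5a in 8 of 8 libraries, at 11.1, 11.2, 11.6 and 11.5 FPKM in LysM and 10.6, 11.1, 10.2 and 10.02 FPKM in K2KO. Only K2KO1 reached the LysM range, and the log2 fold change was -0.11 ± 0.05 (SE) with an adjusted p of 0.154. After correction for GC content and length it was -0.18 with an adjusted p of 0.0475, which is under the p threshold but short of the fold threshold. The transcripts share 90.9% of bases over 2332 aligned bases, so reads could in part be assigned to the other gene.

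Stat6, the factor of interleukin-4 and interleukin-13 (chr10:127642986-127660957, + strand), was the steadiest of the 9. Stat6 FPKM was 58.9, 60.1, 60.7 and 61.3 in LysM and 59.4, 62.4, 61.4 and 57.2 in K2KO, with coefficients of variation of 1.70% and 3.80%. Its log2 fold change was 0.00 ± 0.05 (SE), with an adjusted p of 0.968. Its sign turned under scaling to the upper quartile and under quantile normalization, at values of at most 0.11.

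Socs3, the inhibitor that binds gp130 and JAKs and limits interleukin-6 signals (chr11:117966079-117970047, - strand), had the largest fold change in size among the 9 genes and also the largest spread. Socs3 FPKM was 2.35, 1.81, 2.77 and 3.25 in LysM0 to LysM3 and 2.14, 1.85, 1.11 and 1.86 in K2KO0 to K2KO3. K2KO2 was the lowest library, and 3 of the K2KO libraries lay within the LysM range. The means were 2.55 ± 0.611 and 1.74 ± 0.439 FPKM (SD, n = 4), with coefficients of variation of 24.0% and 25.2%. The log2 fold change of -0.53 ± 0.22 (SE) did not pass the test (adjusted p = 0.118), and over the other settings and the fits with a library left out the adjusted p lay between 0.0871 and 0.328.

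The Socs3 promoter was the only one of the 9 with the palindrome bound by STAT dimers, searched as TTCNNNGAA on both strands. The stretch shown is chr11:117969467-117969566, - strand, 5′ to 3′ (RefSeq, GRCm38.p6), with the palindrome in capitals, beginning 154 bases before the start.
Socs3: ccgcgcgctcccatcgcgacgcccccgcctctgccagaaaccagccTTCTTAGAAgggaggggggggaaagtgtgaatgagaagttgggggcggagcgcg
These letters occurred in 8.30% of all RefSeq promoters. The letters CACCC, the core of the box that KLF factors bind, were found in the promoters of 7 of the 9 genes (all but Jak1 and Jak2). Counted by promoter, some genes having more than 1, that was 7 of 11, beside 57.5% of all promoters.

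The genes with the profile most like each of the 9, by the root mean square difference of centred log2 values over 8 libraries among 10919 other genes, were Hsd17b12 and Rabif for Jak1, Hpse and Dnajc13 for Jak2, and Brd3 and Tbkbp1 for Tyk2. For Stat2 they were Helz2 and Irgm2, at differences of 0.08 and 0.08. Fam104a and Rasa4 were closest to Stat3, Ccdc97 and Plpp2 to Stat5a, Slc35b2 and Arhgap17 to Stat5b, and Hs1bp3 and Surf4 to Stat6. Gm4374 and Gpc2 were nearest to Socs3, at 0.16 and 0.17. This distance grows with the spread of the gene itself, which by the same measure was 0.41 for Socs3, 0.29 for Stat2 and 0.04 for Stat6.

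Around the 9 genes, 129 further genes of the route were listed, of which 127 were in the table and 96 were tested. Of these, 8 were higher and 8 lower in K2KO, 16.7% in all, against 18.4% of all genes tested.

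The other kinase Jak3 had a log2 fold change of -0.15 ± 0.08 (SE) with an adjusted p of 0.214, and Stat4, low at 1.59 ± 0.327 and 1.40 ± 0.142 FPKM (SD, n = 4), one of -0.16 with an adjusted p of 0.518. Neither was called. Jak3 lies 0.628 Mb from Klf2 and shares 1362 bases on the same strand with Insl3, so its value is uncertain.

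Among cytokine receptors, 22 of 28 were tested, and 3 were higher and 3 lower, 27.3% against 18.4% of all genes, a count of 6 that ran from 2 (without LysM3) to 7 (without LysM0) with a library left out. Il7r, the alpha chain of the interleukin-7 receptor, which works with Jak1, Jak3 and Stat5, had the largest fold change of these 22. Its FPKM was 34.8, 32.7, 26.2 and 24.4 in LysM and 51.8, 62.7, 62.2 and 49.6 in K2KO. The groups were well apart, with a log2 fold change of 0.94 ± 0.13 (SE) and an adjusted p of 0.00618, and the call held in 11 of 11 other settings and in 8 of 8 fits with a library left out.

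Csf2rb, the beta chain through which GM-CSF, interleukin-3 and interleukin-5 reach Jak2, was 51.1, 43.3, 33.4 and 38.0 FPKM in LysM and 68.8, 72.2, 75.5 and 58.8 FPKM in K2KO. Every K2KO library lay above every LysM library, with a log2 fold change of 0.74 ± 0.13 (SE) and an adjusted p of 0.0120, which was lost only without LysM3 (adjusted p = 0.0529). Csf2rb2, its neighbour for interleukin-3 alone, was higher by 0.71 ± 0.14 (SE, log2, adjusted p = 0.0146), called in 10 of 11 other settings and 6 of 8 fits with a library left out, not without LysM3 (adjusted p = 0.0627) or K2KO2 (adjusted p = 0.0510). Their transcripts share 95.1% of bases over 3108 aligned bases, so these are not independent measurements. The alpha chains did not follow: Csf2ra, for GM-CSF, was at 193 ± 38.0 and 181 ± 12.1 FPKM (adjusted p = 0.708), and Il3ra, for interleukin-3, was lower in K2KO. Il3ra FPKM was 119, 146, 115 and 136 in LysM and 84.7, 77.4, 79.2 and 118 in K2KO, where K2KO3 alone reached the LysM range. Its log2 fold change of -0.54 ± 0.14 (SE, adjusted p = 0.0292) was called in 6 of 11 other settings and 3 of 8 fits with a library left out, and not without LysM0 and K2KO1 (adjusted p = 0.0783). Corrected for GC content and length, it was -0.35 (adjusted p = 0.0669).

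Il10ra, the interleukin-10 receptor chain that works with Jak1 and Stat3, was lower in K2KO. Il10ra FPKM was 69.1, 74.8, 82.4 and 84.8 in LysM and 57.2, 55.4, 54.2 and 50.6 in K2KO. The groups were separate, and the log2 fold change of -0.51 ± 0.08 (SE, adjusted p = 0.00825) was called in 11 of 11 other settings and 8 of 8 fits with a library left out. Il10rb, the second chain, was at 175 ± 4.72 and 183 ± 5.39 FPKM (adjusted p = 0.407). Il2rg, the common gamma chain, was lower by a smaller margin (-0.29 ± 0.08 SE, adjusted p = 0.0297), with overlapping groups and a call in 6 of 11 other settings and 3 of 8 fits with a library left out. It shares 730 identical bases with the overlapping gene Gm20489. The interferon receptor chains Ifnar2 and Ifngr1 were not called, with adjusted p of 0.304 and 0.765.

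Of 21 ligands, 19 were in the table, 5 were tested and 1 was called (20%, against 18.4% of all genes). Il10, the anti-inflammatory cytokine read by Il10ra, was 18.6, 23.6, 36.4 and 29.2 FPKM in LysM and 16.5, 17.1, 17.9 and 15.0 FPKM in K2KO. The K2KO libraries lay close together below the lowest LysM library, with a log2 fold change of -0.65 ± 0.18 (SE) and an adjusted p of 0.0333. The call held in 8 of 11 other settings but in only 1 of 8 fits with a library left out, without LysM0 (-0.82, adjusted p = 0.0116), while the adjusted p was 0.0571 to 0.113 without any other library. Ebi3, a subunit of interleukin-27, was at 108 ± 21.6 and 81.9 ± 7.31 FPKM (adjusted p = 0.0734), and Osm, oncostatin M, at 65.2 ± 8.58 and 54.2 ± 5.39 FPKM (adjusted p = 0.108). Ifnb1, interferon beta, and Il13 were listed at 0 in all 8 libraries.

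**Figure D4:**
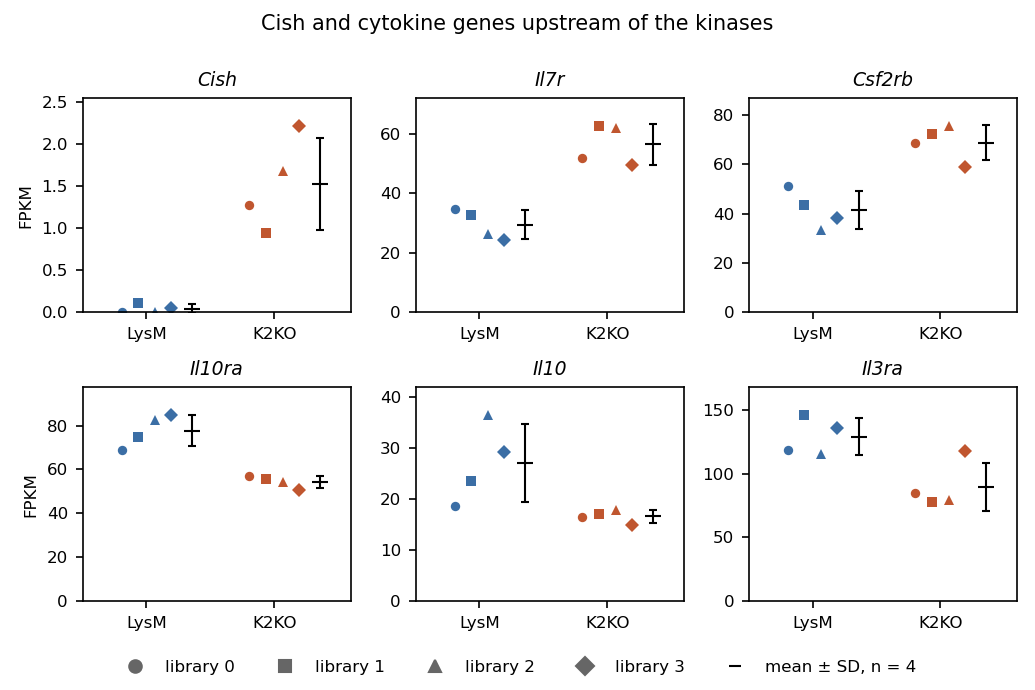
FPKM (y axes, from 0) of Cish and of 5 receptor and ligand genes in the 8 libraries, LysM in blue and K2KO in orange, with the mean ± SD of 4 libraries. Cish, Il7r and Csf2rb are higher in each K2KO library than in any LysM library, Il10ra and Il10 are lower in each, and Il3ra overlaps through K2KO3.

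Among the other SOCS inhibitors, 6 of 7 were tested and 2 were higher in K2KO (33.3%, against 9.84% of all genes), a count that was 0 without LysM1, LysM3, K2KO0 or K2KO2 and 1 without LysM2 or K2KO1. Socs4, which acts on growth factor receptors, had a log2 fold change of 0.37 ± 0.08 (SE, adjusted p = 0.01999), and Socs6 one of 0.35 ± 0.10 (SE, adjusted p = 0.0386). Socs4 was called in 9 of 11 other settings and 4 of 8 fits with a library left out, and Socs6 in 4 of 11 and 2 of 8. Corrected for GC content and length, Socs4 was at 0.09 and Socs6 at 0.08 (adjusted p = 0.415 and 0.589). Without LysM0 and K2KO1 the Socs6 call was lost (adjusted p = 0.0550). Socs1, the inhibitor of interferon signals, was at 3.25 ± 0.526 and 2.54 ± 1.03 FPKM (SD, n = 4), with an adjusted p of 0.262.

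Cish, the inhibitor induced by STAT5, was the gene of the family under the filter on low values, and its values are given as a description, since a filter on the mean would admit it only through the K2KO libraries. Cish FPKM was 0, 0.113, 0 and 0.0490 in LysM0 to LysM3 and 1.28, 0.938, 1.68 and 2.21 in K2KO0 to K2KO3. Every K2KO library lay above every LysM library, and 23.1% of all genes tested had groups that did not overlap in either direction. The difference of the means on the log2(FPKM + 0.1) scale was 3.54, and 3.35 to 3.77 with a library left out. Its size depends on the pseudocount, being 1.26 with 1 and 5.65 with 0.01.

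The first bases of the Cish transcript in RefSeq hold a pair of the same STAT palindromes, shown in capitals, at chr9:107296659-107296678, + strand, GRCm38.p6.
Cish: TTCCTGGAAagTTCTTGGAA
Of 6 STAT5 targets with a matched promoter, 2 held the palindrome there, Cish and Bcl6. Cish lies 0.864 Mb from Rpl29, a ribosomal protein gene chosen for mention after its values were seen, which had a mean of 0.1502 FPKM in LysM and 382 FPKM in K2KO. The pseudogene Gm17040 overlaps Cish on the opposite strand over 1167 bases. The part of either in the Cish values was not tested.

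Among phosphatases, PIAS proteins and adaptors that restrain the route, 12 of 12 were tested, and 3 were called lower and 0 higher in K2KO (25.0%, against 8.61% lower and 9.84% higher over all genes). Their median log2 fold change was 0.09, with 7 on the higher and 5 on the lower side, and the count of calls ran from 0 to 7 (without K2KO3) with a library left out. The called genes were Ptpn6 (SHP-1), a phosphatase of blood cells, at -0.30 ± 0.08 (SE, log2, adjusted p = 0.0311), Ptpn2, a phosphatase of JAKs and STATs in the nucleus and cytoplasm, at -0.33 ± 0.09 (adjusted p = 0.0336), and Cbl, a ubiquitin ligase, at -0.38 ± 0.10 (adjusted p = 0.0303). With GC content and length corrected for, Ptpn2 stood at -0.54 and Cbl at -0.54, still called, and Ptpn6 at -0.22, not called (adjusted p = 0.107). In the other settings, Ptpn2 and Cbl were each called in 9 of 11 and Ptpn6 in 4 of 11. With 1 library left out, Ptpn2 and Cbl were each called in 2 of 8 fits and Ptpn6 in 4 of 8, and without LysM0 and K2KO1 the Cbl call was lost (adjusted p = 0.0678). Ptprc (CD45), second to Ptpn6 in level, was at 52.8 ± 3.76 and 65.3 ± 7.90 FPKM with an adjusted p of 0.0525, and it was called higher in 3 of 11 other settings. Of 7 partner factors and coactivators, among them Irf9, Nmi, Sh2b1 and Ep300, 0 were called by limma or by ordinary least squares, and 2, Ep300 and Sh2b2, had an unadjusted p under 0.05, against 18.4% called by limma and 37.8% at such a p over all genes. With the correction for GC content and length 1 of the 7 was called, Sh2b2 (0.80, limma adjusted p = 0.0487). The count was also 1 without K2KO3.

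Targets of STAT3, 15 in number with Socs3 among them and 15 tested, gave 2 higher and 1 lower call (20%, against 18.4% of all genes), a count of 3 that was 1 without LysM1, LysM2, LysM3, K2KO0 or K2KO2. Hif1a, the oxygen-regulated transcription factor, was 7.82, 7.60, 7.56 and 7.03 FPKM in LysM and 12.7, 11.7, 10.6 and 10.1 FPKM in K2KO. The groups were far apart, with a log2 fold change of 0.58 ± 0.08 (SE, adjusted p = 0.00630) that was called in 11 of 11 other settings and 8 of 8 fits with a library left out. After correction for GC content and length the log2 fold change was 0.34 (adjusted p = 0.0293), with 41.3% GC in its transcripts. An antisense gene, Gm15283, overlaps it over 46156 bases. Vegfa, the vascular growth factor, was higher by 0.43 ± 0.13 (SE, adjusted p = 0.0489), with K2KO1 at 101 FPKM inside the LysM range of 90.1 to 110 FPKM, and was called in 3 of 11 other settings and 1 of 8 fits with a library left out. Corrected for GC content and length, it was 0.38 and not called (adjusted p = 0.101). Bcl3, a nuclear IkB protein, was lower by 0.30 on the log2 scale (adjusted p = 0.0430), which was -0.05 after the correction for GC content and length (adjusted p = 0.702) and was not called without LysM0 and K2KO1 (adjusted p = 0.0876). The Bcl3 call held in 3 of 11 other settings and 2 of 8 fits with a library left out. The most abundant targets, Junb, Cebpb, Fos and Mcl1, were not called, at adjusted p of 0.179, 0.138, 0.706 and 0.782.

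Of 9 targets of STAT5, 6 were tested and 0 were called by limma or by ordinary least squares, while 2, Bcl2l1 and Osm, had an unadjusted p under 0.05, against the same 18.4% and 37.8% of all genes. Cish, described above, was among the 3 targets under the filter on low values. The count of calls was 1 with a filter at a mean of 0.1 FPKM or with no filter. At 0.1 FPKM that call was Cish, which passed the filter through the K2KO libraries alone, so it is not counted as a result. Pim1, a kinase that promotes survival, was at 147 ± 7.95 and 140 ± 2.87 FPKM (adjusted p = 0.362), and Bcl2l1, which encodes Bcl-xL, at 48.0 ± 2.41 and 41.4 ± 3.20 FPKM (adjusted p = 0.0543). Of 11 targets of STAT6, 5 were tested and 1 was higher in K2KO (20%, against 9.84% of all genes), Tfec, a transcription factor of the macrophage lineage. Tfec FPKM was 2.32, 2.503, 1.77 and 2.59 in LysM and 4.10, 4.79, 4.67 and 2.85 in K2KO. K2KO3 lay just above the highest LysM library and the other K2KO libraries well above it, with a log2 fold change of 0.80 ± 0.18 (SE, adjusted p = 0.0203), called in 9 of 11 other settings and 4 of 8 fits with a library left out, but not without LysM0 and K2KO1 (adjusted p = 0.0692). Mrc1, the mannose receptor, was at 31.2 ± 4.57 and 32.1 ± 5.84 FPKM (adjusted p = 0.879). Ccl17 was listed at 0 in all libraries.

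**Figure D5:**
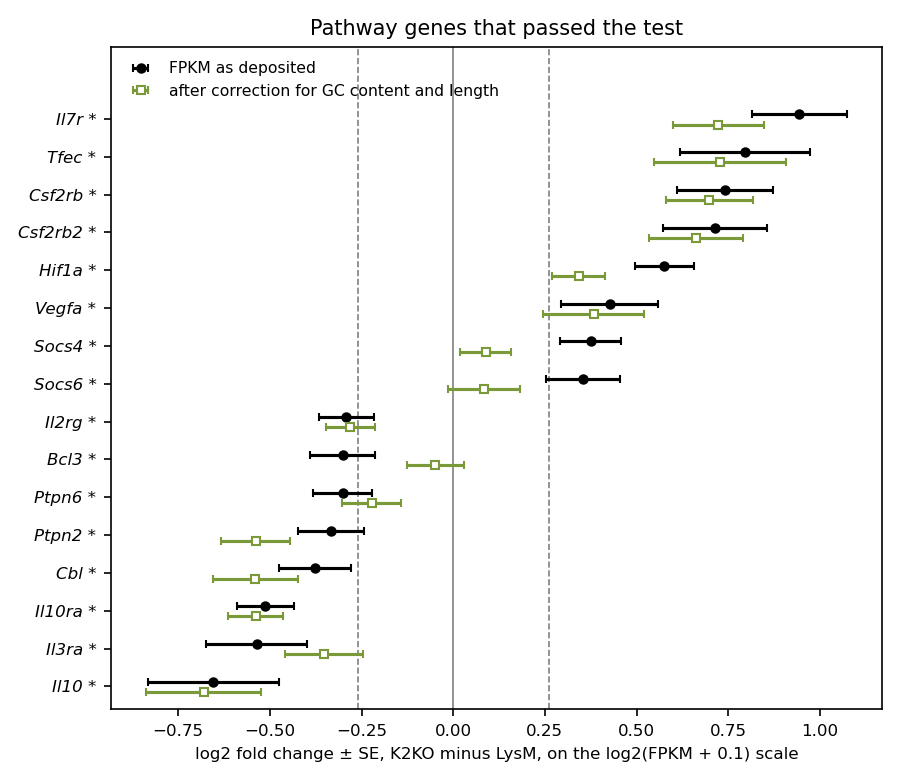
Log2 fold change (x axis, K2KO minus LysM, log2(FPKM + 0.1) scale, ± SE from limma) of the 16 called genes around the 9, on the deposited FPKM (black) and after correction for GC content and transcript length (green), with dashed lines at -0.26 and 0.26. Il7r, Tfec and Csf2rb lie at 0.94, 0.80 and 0.74 and Il10 at -0.65, while Socs4, Socs6 and Bcl3 move to within 0.09 of 0 with the correction.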

How the data were processed

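Total RNA of 8 BMDM libraries was sequenced by the authors (stranded total RNA libraries, HiSeq). The deposited table holds FPKM made by the authors with Cufflinks on mm10. The methods name TopHat2 as the aligner and the labels' processing notes name STAR, Cufflinks and Cuffdiff, with no versions, and the strand setting of the quantification was not given in the sources used here. Of 23761 gene IDs, 23645 matched GENCODE M21, from which coordinates, GC content and overlaps were taken (blastn 2.17.0 for near-identical copies).

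FPKM are not counts, so log2(FPKM + 0.1) of the 10920 genes with a mean of at least 1 FPKM was fitted with limma 3.58.1 in R 4.3.3 (eBayes with trend, all 8 libraries), with Benjamini-Hochberg adjustment over all of them. The script was tested on simulated data. Single genes were tested by exact permutation (SciPy 1.17.1, 35 divisions of 8 libraries into 4 and 4). The paper gives 4 mice per group for the sequencing, and the libraries are labelled as separate samples. Which column belongs to which mouse could not be told, and p-values measure the spread between these libraries. The depth is unknown, and no interval for counting error is given.

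The genes and lists were chosen with earlier results of these data known, and some listed genes are not reported here. Named are Klf2, the 9 genes, each called gene of the lists and up to 4 more of each by mean FPKM, the 2 genes most like each of the 9, and the top marker of each list. Alternatives were other pseudocounts (1 and 0.01), filters, scalings and variance models, a replicate block, a correction for GC content and length (loess, span 0.3), a fold threshold of 1 on the log2 scale, each library left out and, added after seeing the data, LysM0 and K2KO1 both left out.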

Additional observations from a re-analysis of the deposited data

Results flagged for a closer look

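In 126 groups of 4 libraries (63 genes in LysM and in K2KO), 9 had a highest or lowest library that stood apart from the other 3 by Dixon's criterion (a gap to the nearest library that takes up most of the group's range), where chance gives about 1 in 20, or 6.3. All 9 were K2KO groups. The genes were read in the same libraries and several moved together, so the groups are not independent and the number from chance is only a guide. K2KO1 was the low library for Isg15 (49.3 FPKM, the others 116 to 129), Usp18, the protease that removes Isg15 (20.5 FPKM, the others 39.7 to 40.9), Oasl2 (79.8 FPKM, the others 137 to 144) and Irf9 (26.3 FPKM, the others 33.3 to 34.3). The same library was high for Ptpn6 (97.3 FPKM, the others 86.2 to 87.2) and Il2rg (51.8 FPKM, the others 46.2 to 46.8). K2KO3 was low for Csf2rb2 (80.3 FPKM, the others 104 to 107) and high for Gbp2, a GTPase induced by interferon (18.2 FPKM, the others 3.33 to 5.70). K2KO0 was high for Ebi3 (92.8 FPKM, the others 77.2 to 78.9). None of the 9 genes of the kinases, STATs and Socs3 met the criterion.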

How the results depend on the processing

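The table gives no counts, so counting error cannot be set beside the low genes Jak2, Socs3 and Cish, and with 4 libraries a genotype the number of calls moved with single libraries. Among all genes, 2014 were called, and 1090 without a filter on low values, 746 with ordinary least squares, 899 with the correction for GC content and length, 715 with that correction and the replicate block, 1285 with LysM0 and K2KO1 both left out, and 110 at a log2 fold change over 1. With 1 library left out the count ran from 337 (without LysM3) to 2837 (without K2KO3), and it fell by over 1.5 times without each of 6 libraries, all but LysM0 (2332) and K2KO3. The share of calls that were higher in K2KO was 53.3%, and 64.1% after scaling to the upper quartile. It was 45.9% with the correction for GC content and length and 47.8% with that correction and the replicate block. In those fits lower calls were the more frequent.

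Of the 9 genes, 1 was called. The count was 0 with no filter, quantile normalization, ordinary least squares, the replicate block, the correction for GC content and length with or without that block, LysM0 and K2KO1 both left out, or a log2 fold change over 1, and it was 2 after scaling to the upper quartile. With 1 library left out it ran from 0 to 2. The cause was not tested. Stat6, at -0.0034 on the log2 scale, was 0.11 with quantile normalization, 0.041 after upper quartile scaling, and -0.022 to 0.020 with a library left out. Stat2 ran from -0.029 to 0.27 with a library left out. Klf2, at -0.18, was 0.049 with the correction for GC content and length, with and without the replicate block. None of these values passed the test. With the replicate block alone, 2057 of all genes were called. Libraries that share a number deviated from their group means with correlations of -0.07, 0.02, 0.07 and -0.06, so no pairing by number was seen. The columns could not be tied to mice, so these values cannot exclude a pairing of the samples.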
